A study of Mus musculus with 12 samples.

Results

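Cyr61, Ctgf and 8 further target genes of the transcriptional coactivator YAP were followed across 3 doses of perfluorooctanesulfonate (PFOS), a persistent perfluorinated surfactant, in mouse muscle cells. The genes were taken from the deposited gene count table by name, as Cyr61, Ctgf, Ankrd1, Amotl2, Ajuba, Axl, Crim1, Nuak2, Lats2 and Ccdc80. They are 10 of the 54532 genes in the table, and all 10 were among the 16038 genes that passed the filter on low counts. The genes were chosen by their measured counts in all 3 doses, with a peak at 2 µM in view, so their dose differences are given below as descriptions with errors and without p-values. The samples were C2C12 cells, an established mouse line of muscle precursor cells (myoblasts), which had filled their dishes before PFOS was added at 0, 2 or 6 µM for 24 h. No other treatment or genetic change is stated in the labels. Each dose had 4 libraries of messenger RNA, and nothing states that the 4 came from separate cultures, so the spread and p-values given here measure only differences between these samples, which may be technical.

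YAP and its relative TAZ, the product of Wwtr1, are the effectors of the Hippo pathway. When the kinases LATS1 and LATS2 are active, as is known in densely packed cells, YAP and TAZ are phosphorylated and held out of the nucleus. When they enter the nucleus they bind TEAD factors on DNA and raise the transcription of genes for matricellular proteins, cytoskeletal regulators and growth receptors. Several of the induced proteins, among them LATS2, AMOTL2 and AJUBA, act back on the pathway. In muscle, YAP activity is known to favour the proliferation of myoblasts.

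TEAD factors bind a core of the letters GGAATG, and this core was searched on both strands in the 250 bases before each RefSeq transcription start (assembly GRCm38.p6). Sequences for 7 of the 10 genes were used, in 8 windows because Lats2 has more than 1 start. No sequence was matched to Ctgf, Nuak2 and Ccdc80, so the core was not searched in them. The core was found in 6 of the 8 windows, those of 6 of the 7 genes, with 8 matches in all. Of the 32851 mouse windows of this length that were available, which may not cover every gene, 12.6% held it (4153 windows). The 4 windows below are shown because Cyr61 and Ankrd1 had the clearest peak at 2 µM, while Amotl2 and Axl, which carry the same core, had other dose patterns. Each is written 5′ to 3′ on the strand of its gene, and capitals mark GGAATG or its reverse complement CATTCC. The Cyr61 window is chr3:145649986-145650235 on the minus strand, the Ankrd1 window chr19:36119845-36120094 on the minus strand, the Amotl2 window chr9:102717554-102717803 on the plus strand, and the Axl window chr7:25788734-25788983 on the minus strand.
Cyr61: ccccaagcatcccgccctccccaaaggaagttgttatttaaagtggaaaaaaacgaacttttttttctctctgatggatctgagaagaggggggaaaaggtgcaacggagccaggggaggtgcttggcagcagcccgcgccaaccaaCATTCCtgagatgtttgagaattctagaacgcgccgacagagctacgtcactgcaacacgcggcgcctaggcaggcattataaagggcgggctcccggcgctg
Ankrd1: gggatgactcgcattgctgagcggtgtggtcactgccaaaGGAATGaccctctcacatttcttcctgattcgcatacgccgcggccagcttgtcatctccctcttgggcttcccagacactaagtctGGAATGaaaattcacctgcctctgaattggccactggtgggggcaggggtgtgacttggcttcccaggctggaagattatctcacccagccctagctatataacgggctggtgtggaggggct
Amotl2: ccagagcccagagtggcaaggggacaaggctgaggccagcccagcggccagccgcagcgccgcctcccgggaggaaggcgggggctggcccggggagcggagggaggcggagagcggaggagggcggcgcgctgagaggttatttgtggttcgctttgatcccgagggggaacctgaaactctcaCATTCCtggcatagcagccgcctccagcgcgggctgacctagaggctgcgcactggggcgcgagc
Axl: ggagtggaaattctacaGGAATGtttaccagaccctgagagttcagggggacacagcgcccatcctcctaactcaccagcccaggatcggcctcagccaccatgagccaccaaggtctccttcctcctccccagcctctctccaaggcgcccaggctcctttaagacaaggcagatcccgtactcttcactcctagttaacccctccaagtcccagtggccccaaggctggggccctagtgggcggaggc

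In Cyr61 the match begins 103 bases before the start and lies on the opposite strand. Ankrd1 has matches at 210 and 123 bases before the start, both on the strand of the gene. The Amotl2 match lies 65 bases before the start on the opposite strand, and the Axl match 233 bases before it on the strand of the gene. Ajuba has matches at 186 and 164 bases, both on the opposite strand, and Crim1 has 1 at 79 bases on its own strand. Neither Lats2 window holds these letters. The letters TGANTCA, a core for AP-1 factors, which are known to work beside TEAD factors, occurred in none of the 8 windows, against 6.75% of all windows. A CArG box, the motif of serum response factor, also occurred in none of them, against 1.47% of all windows. These are matches of letters, and binding of TEAD factors was not measured here.

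**Figure D1:**
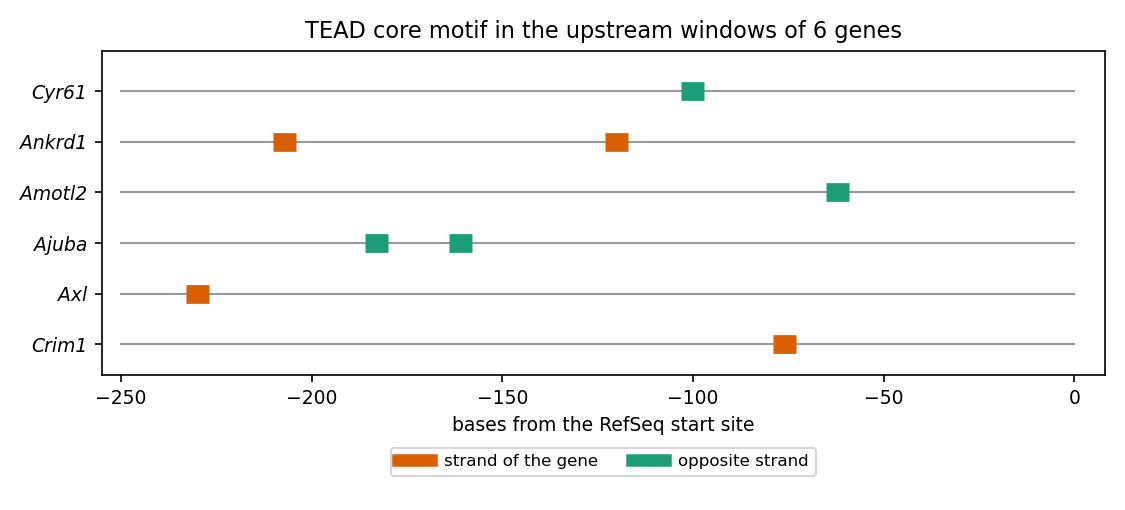
Position of TEAD core letters in the 250 bases before the transcription start. The horizontal axis is the distance from the start in bases, each row is 1 of the 6 genes with a match, and the coloured marks are matches on the strand of the gene or on the opposite strand. The 8 matches lie between 233 bases (Axl) and 65 bases (Amotl2) before the start. Ctgf, Nuak2 and Ccdc80 were not searched.

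Total gene counts ran from 30206155 to 50351082 per library. The 0 µM libraries were shallower, with a mean of 36.8 M counts (SD 7.10), beside 44.4 M (SD 4.63) for the 2 µM and 43.1 M (SD 2.21) for the 6 µM libraries. Levels below are counts-per-million (CPM), with library sizes scaled for composition. The 10 genes were read deeply, with between 383 (Ctgf) and 22835 (Cyr61) counts in any library. The myoblast genes Myod1 and Des averaged 23.2 to 30.3 and 229 to 259 CPM per dose, while Pax7, a marker of quiescent muscle stem cells, did not pass the filter. The summed level of the 8 myoblast markers was 466 to 552 CPM at 0 µM, 463 to 509 at 2 µM and 441 to 492 at 6 µM. Within that list, all 7 tested markers had negative log2 fold changes for 6 against 0 µM, with a median of -0.38, and 3 of them (Myod1, Cdh15 and Myog) fell by edgeR's test (adjusted p = 0.00333, 0.0369 and 0.00172). For 2 against 0 µM the median of the 7 was -0.16, and 4 were lower with p under 0.05 before adjustment. The part of these myoblast marker differences in the values below was not tested. The sums of 5 markers each were 0.324 to 1.58 CPM over all 12 libraries for macrophages, at most 0.221 for adipocytes with Adipoq and Retn at 0, and at most 0.135 for epithelium with Krt18 and Cldn4 at 0. Sums of 4.58 to 7.17 CPM were found for 5 endothelial markers, 21.5 to 29.6 CPM for 5 fibroblast markers and 347 to 420 CPM for 5 smooth muscle markers, which include Des. In bulk RNA, fewer cells of a kind and less RNA per cell cannot be told apart.

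Across the 10 genes, the mean level was highest at 2 µM for 8, at 6 µM for Axl and at 0 µM for Ccdc80. Over all 16038 genes tested, the mean was highest at 2 µM for 27.7%, at 6 µM for 32.7% and at 0 µM for 39.6%. The summed level of the 10 genes was 1504 ± 25.3 CPM at 0 µM, 1763 ± 55.2 CPM at 2 µM and 1559 ± 20.8 CPM at 6 µM (SD, n = 4 each). These sums did not overlap between 2 µM (1696 to 1827 CPM) and 0 µM (1482 to 1541 CPM), nor between 2 µM and 6 µM (1537 to 1584 CPM). Abundant genes lead the sum: the means of Cyr61 and Ankrd1 were 120.7 and 79.73 CPM higher at 2 than at 0 µM. The next largest difference was 30.96 CPM (Axl), and that of Ccdc80 was -20.08 CPM. The median log2 fold change of the 10 genes was 0.15 for 2 against 0 µM, 0.08 for 6 against 0 µM and -0.16 for 6 against 2 µM, beside medians of -0.01, -0.02 and -0.00 over all genes tested. The choice of the genes used these contrasts, so nothing about PFOS and YAP targets in general follows from the counts.

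**Figure D2:**
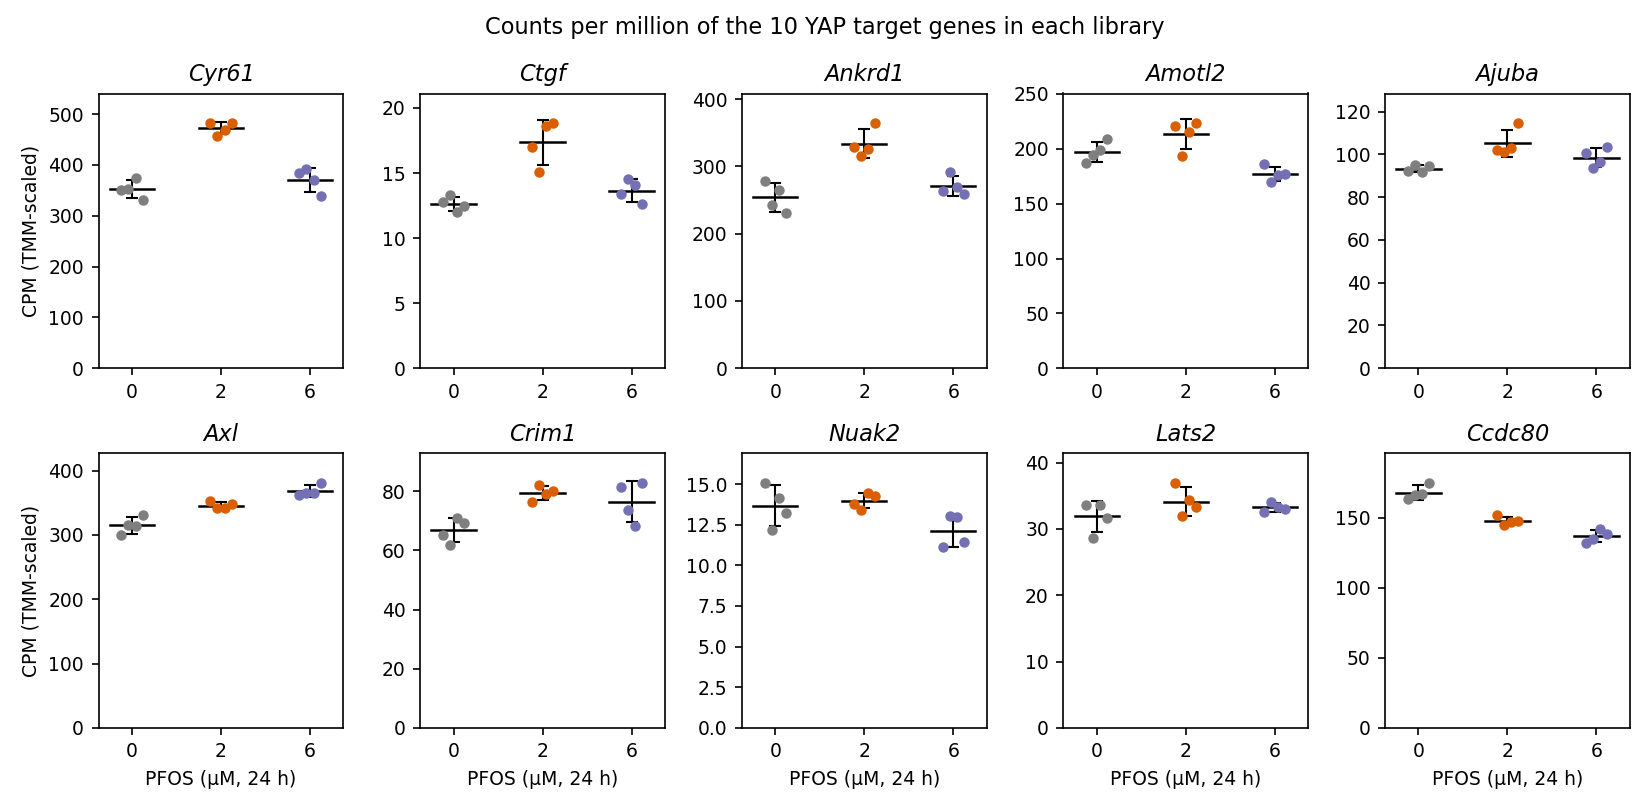
CPM of the 10 genes in every library. Each panel is a gene, the horizontal axis gives the PFOS dose in µM, points are libraries (4 per dose) and lines are means with SD. In Cyr61, Ctgf and Ankrd1 every 2 µM point lies above every 0 µM and every 6 µM point, Axl is highest at 6 µM and Ccdc80 is highest at 0 µM.

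Cyr61 encodes CCN1, a secreted matricellular protein that binds integrins, and is a standard readout of YAP activity. Cyr61 (ENSMUSG00000028195, chr3:145646976-145649981, minus strand) had 350.2, 352, 374 and 331 CPM at 0 µM, 482, 457, 468 and 483 CPM at 2 µM, and 383, 392, 369.5 and 338 CPM at 6 µM. All 2 µM libraries were above all libraries of the other doses, and the 6 µM and 0 µM libraries overlapped. The log2 fold change was 0.43 (SE 0.0462) for 2 against 0 µM, a level 1.34-fold higher, 0.08 (SE 0.0461) for 6 against 0 µM, and -0.35 (SE 0.0461) for 6 against 2 µM, a level 1.27-fold lower. Ctgf encodes CCN2, the close relative of CCN1 that is best known from fibrosis. Ctgf (ENSMUSG00000019997, chr10:24595442-24598683, plus strand) had 12.8, 13.3, 11.996 and 12.5 CPM at 0 µM, 17.0, 15.1, 18.6 and 18.8 CPM at 2 µM, and 13.4, 14.6, 14.1 and 12.6 CPM at 6 µM. Again no 2 µM library reached down to those of 0 or 6 µM, although its lowest value stood close to the highest 6 µM value. The log2 fold changes of Ctgf were 0.46 (SE 0.0923), 0.11 (SE 0.0929) and -0.35 (SE 0.0914) for 2 against 0, 6 against 0 and 6 against 2 µM.

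These CCN genes had levels far apart. Per kilobase of the gene length in the table, Cyr61 stood at 174 CPM at 0 µM, 234 at 2 µM and 184 at 6 µM, while Ctgf stood at 4.42, 6.07 and 4.77. Cyr61 was number 232 and Ctgf number 7979 in the order of length-scaled levels of the 16038 genes at 0 µM. The SE of Ctgf was wider, at 0.0923 against 0.0462 for 2 against 0 µM, and the part of its lower level in this was not tested.

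Ankrd1 encodes a nuclear and sarcomeric ankyrin repeat protein that is induced by mechanical stress in muscle, and is also widely used as a YAP readout. Ankrd1 (ENSMUSG00000024803, chr19:36111965-36119844, minus strand) had 278, 243, 264 and 231 CPM at 0 µM, 329, 316, 326 and 365 CPM at 2 µM, and 264, 292, 269 and 259 CPM at 6 µM. As in Cyr61 and Ctgf, all 2 µM libraries were highest and the other doses overlapped. Its log2 fold change was 0.39 (SE 0.0563) for 2 against 0 µM, 0.09 (SE 0.0563) for 6 against 0 µM and -0.30 (SE 0.0562) for 6 against 2 µM, so that the level was 1.31-fold higher at 2 than at 0 µM and 1.23-fold lower at 6 than at 2 µM. Cyr61, Ctgf and Ankrd1 were the 3 of 10 genes in which every 2 µM library exceeded every library of both other doses, an arrangement held by 0.586% of all genes tested.

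Amotl2, Ajuba and Lats2 encode proteins that feed back on the pathway: AMOTL2 binds YAP at junctions, AJUBA is an adaptor protein that inhibits LATS kinases, and LATS2 phosphorylates YAP. Amotl2 (ENSMUSG00000032531, chr9:102716672-102733418, plus strand) had 187, 194, 199 and 209 CPM at 0 µM, 221, 193, 215 and 224 CPM at 2 µM, and 186, 170.1, 177 and 177 CPM at 6 µM. The 6 µM libraries lay below all others, while those of 2 and 0 µM overlapped through replicate 2 at 2 µM. The log2 fold changes of Amotl2 were 0.11 (SE 0.0489) for 2 against 0 µM, -0.15 (SE 0.0490) for 6 against 0 µM and -0.27 (SE 0.0489) for 6 against 2 µM. Unlike Cyr61 and Ankrd1, it was therefore lower at 6 µM than in cells without PFOS, with a mean of 177 ± 6.40 CPM at 6 µM against 197 ± 9.24 CPM at 0 µM (SD, n = 4 each).

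Ajuba (ENSMUSG00000022178, chr14:54567472-54577558, minus strand) had 92.1, 95.1, 91.8 and 94.7 CPM at 0 µM, 102, 101, 103 and 115 CPM at 2 µM, and 101, 93.7, 96.5 and 103 CPM at 6 µM. Every 2 µM library was above every 0 µM library, and the 6 µM libraries overlapped both. The log2 fold change was 0.17 (SE 0.0497) for 2 against 0 µM, 0.08 (SE 0.0497) for 6 against 0 µM and -0.10 (SE 0.0495) for 6 against 2 µM. Its mean at 2 µM was 105 ± 6.37 CPM (SD, n = 4), with replicate 4 standing apart at 115 CPM. Lats2 (ENSMUSG00000021959, chr14:57689662-57758388, minus strand) had 33.6, 28.7, 33.7 and 31.6 CPM at 0 µM, 37.0, 31.9, 34.3 and 33.2 CPM at 2 µM, and 32.5, 34.1, 33.3 and 33.0 CPM at 6 µM. All 3 doses overlapped in Lats2, and its log2 fold changes of 0.10 (SE 0.0678), 0.06 (SE 0.0679) and -0.04 (SE 0.0674) were small against their errors.

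Axl and Nuak2 encode kinases, AXL a receptor tyrosine kinase for the ligand GAS6 and NUAK2 a kinase that promotes actomyosin tension. Axl (ENSMUSG00000002602, chr7:25757273-25788705, minus strand) had 299, 315, 314 and 331 CPM at 0 µM, 353, 341, 341 and 348 CPM at 2 µM, and 363, 365, 365 and 382 CPM at 6 µM. It climbed with dose, and no libraries overlapped between any 2 doses. The log2 fold changes of Axl were 0.14 (SE 0.0383) for 2 against 0 µM, 0.23 (SE 0.0383) for 6 against 0 µM and 0.09 (SE 0.0382) for 6 against 2 µM. Nuak2 (ENSMUSG00000009772, chr1:132316126-132333488, plus strand) had 15.1, 12.2, 14.2 and 13.2 CPM at 0 µM, 13.8, 13.4, 14.4 and 14.3 CPM at 2 µM, and 11.1, 13.05, 12.97 and 11.4 CPM at 6 µM. The 2 µM libraries of Nuak2 sat inside the range of the 0 µM libraries and above those of 6 µM. Its log2 fold changes were 0.03 (SE 0.0945), -0.17 (SE 0.0951) and -0.20 (SE 0.0944) for 2 against 0, 6 against 0 and 6 against 2 µM.

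Crim1 and Ccdc80 encode proteins of the cell surface and matrix, CRIM1 a transmembrane protein that binds bone morphogenetic proteins and CCDC80 a secreted matrix protein. Crim1 (ENSMUSG00000024074, chr17:78200248-78376592, plus strand) had 65.3, 61.9, 70.9 and 69.3 CPM at 0 µM, 76.3, 82.2, 79.0 and 79.9 CPM at 2 µM, and 81.3, 73.6, 68.1 and 83.0 CPM at 6 µM. The 2 µM libraries were tight and above all 0 µM libraries, whereas those of 6 µM were spread over both. The log2 fold change of Crim1 was 0.25 (SE 0.0617) for 2 against 0 µM, 0.19 (SE 0.0617) for 6 against 0 µM and -0.05 (SE 0.0613) for 6 against 2 µM. Ccdc80 (ENSMUSG00000022665, chr16:45093402-45128077, plus strand) had 163, 166, 167 and 175 CPM at 0 µM, 152, 145, 147 and 147 CPM at 2 µM, and 132, 135, 142 and 138 CPM at 6 µM. Each dose of Ccdc80 lay wholly below the dose before it. Its log2 fold changes were -0.18 (SE 0.0413) for 2 against 0 µM, -0.29 (SE 0.0414) for 6 against 0 µM and -0.11 (SE 0.0414) for 6 against 2 µM.

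**Figure D3:**
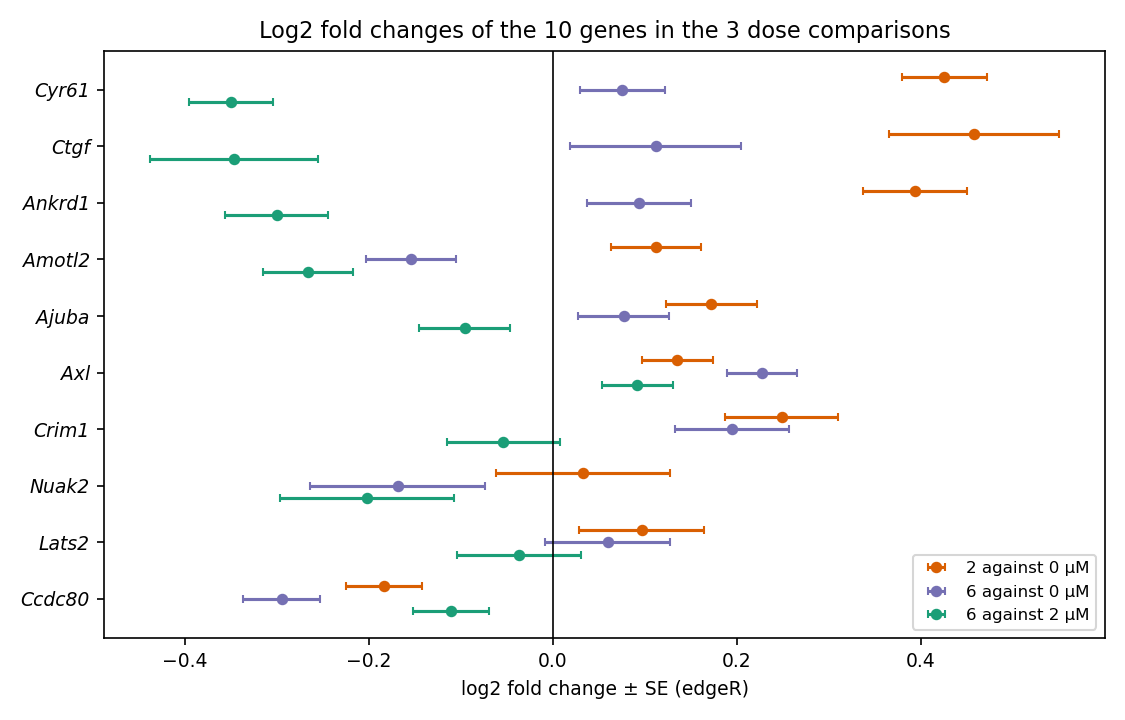
Log2 fold changes of the 10 genes in the 3 comparisons, with bars of 1 SE. Each row is a gene and the horizontal axis is the log2 fold change. Ctgf, Cyr61 and Ankrd1 have the largest values for 2 against 0 µM (0.46, 0.43 and 0.39), return to between 0.08 and 0.11 for 6 against 0 µM, and lie between -0.35 and -0.30 for 6 against 2 µM.

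The 10 genes thus fell into different dose patterns. Since they were chosen by these same counts with a peak at 2 µM in view, the shares and calls below are descriptions only. Any excess over the share of all genes may follow from that choice. All 2 µM libraries lay above all 0 µM libraries in 6 of the 10 genes (Cyr61, Ctgf, Ankrd1, Ajuba, Axl and Crim1), beside 4.77% of all genes tested. All 2 µM libraries lay above all 6 µM libraries in 6 of the 10 (Cyr61, Ctgf, Ankrd1, Amotl2, Nuak2 and Ccdc80), beside 4.15% of all genes. All 6 µM libraries lay above all 0 µM libraries in Axl, beside 6.39% of all genes, and below them in Amotl2 and Ccdc80, beside 6.15%. By edgeR's quasi-likelihood test at an adjusted p under 0.05 over all genes, 4 of the 10 were called higher and 1 lower for 2 against 0 µM, beside 1.61% and 0.742% of all genes. For 6 against 0 µM 1 was called higher and 1 lower, beside 4.58% and 3.66%, and for 6 against 2 µM, where 0.561% of all genes were called higher and 0.549% lower, 3 of the 10 were called lower. The 4 calls for 2 against 0 µM became 2 without replicate 4 at 2 µM. The call of the lower gene, Ccdc80, ended without replicate 4 at 0 µM or without replicate 2, 3 or 4 at 2 µM.

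Per kilobase, the levels of the 10 genes at 0 µM ran in the order Cyr61 (174 CPM), Ankrd1 (144), Axl (62.6), Ccdc80 (39.1), Amotl2 (31.4), Ajuba (25.6), Crim1 (11.1), Lats2 (4.58), Ctgf (4.42) and Nuak2 (3.49). The large peaks at 2 µM were therefore found both in the most abundant genes and in Ctgf, near the low end. Within the 2 µM group, replicate 2 was the lowest library for 8 of the 10 genes and replicate 4 the highest for 5. Over the 12 libraries, the Pearson correlation of each gene with the mean of the other 9 was 0.88 for Cyr61, 0.86 for Ctgf and 0.88 for Ankrd1. It was 0.67 for Ajuba, 0.59 for Amotl2, 0.50 for Lats2, 0.47 for Crim1 and 0.33 for Nuak2, while Axl at 0.07 and Ccdc80 at -0.37 did not follow the rest. These correlations include the dose differences by which the genes were chosen, and the points share libraries and depth.

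The genes of YAP, TAZ and the 4 TEAD factors, which act directly upstream of these targets, did not pass edgeR's test in any of the 3 comparisons. Yap1 averaged 102 ± 3.89 CPM at 0 µM, 107 ± 1.96 at 2 µM and 111 ± 6.03 at 6 µM (SD, n = 4 each), and Wwtr1, the gene of TAZ, 175 ± 4.10, 184 ± 7.77 and 182 ± 8.55 CPM. Yap1 had log2 fold changes of 0.06 for 2 against 0 µM and 0.12 for 6 against 0 µM (edgeR adjusted p = 0.63 and 0.141), and Wwtr1 of 0.08 and 0.06 (edgeR adjusted p = 0.469 and 0.452). The TEAD factor gene Tead1 averaged 162 ± 15.97 CPM at 0 µM, 178 ± 7.35 at 2 µM and 169 ± 5.10 at 6 µM. For 2 against 0 µM the log2 fold changes were 0.14 for Tead1, -0.05 for Tead2, -0.12 for Tead3 and 0.17 for Tead4 (edgeR adjusted p = 0.236, 0.817, 0.504 and 0.538). For 6 against 0 µM they were 0.06, 0.17, -0.12 and 0.33 (edgeR adjusted p = 0.567, 0.134, 0.386 and 0.0621), and the value of Tead4 passed the threshold without replicate 3 at 0 µM, without replicate 4 at 6 µM and in DESeq2. RNA levels do not report the phosphorylation or location of YAP, which were not measured here.

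**Figure D4:**
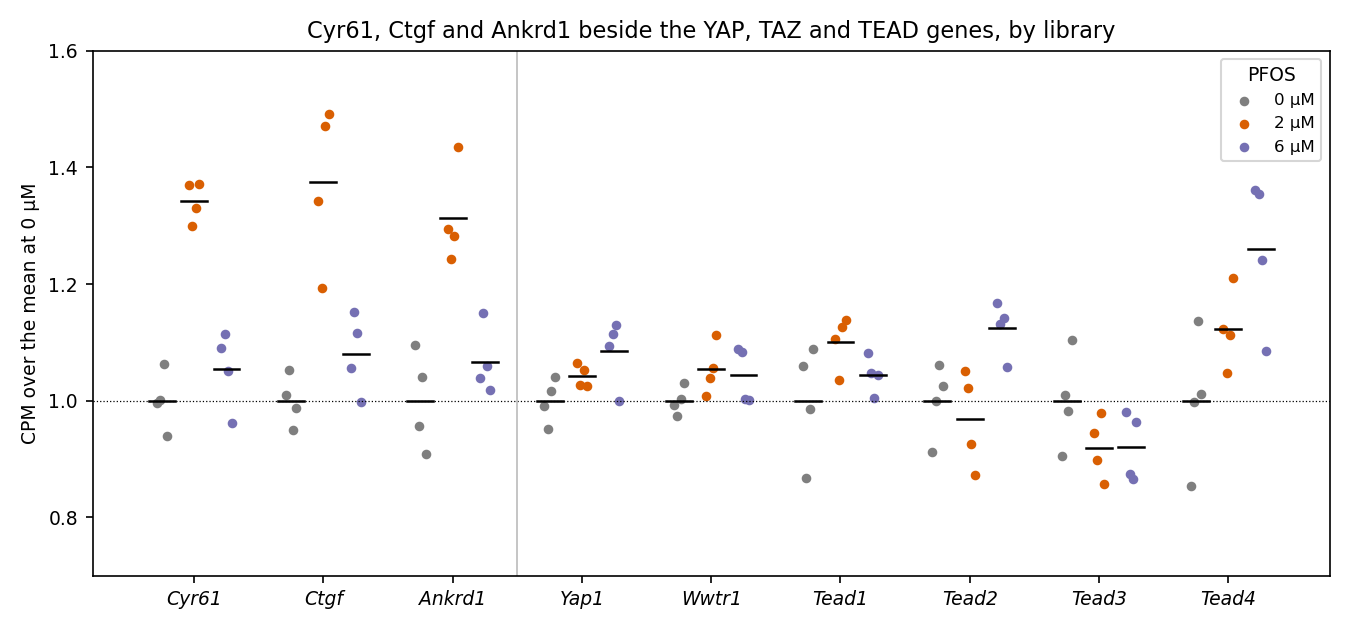
CPM divided by the mean of the 0 µM libraries, on a linear axis that starts at 0.7, for 3 YAP targets and for the genes of YAP, TAZ and the TEAD factors. Points are libraries coloured by PFOS dose, 4 per dose, and black lines are means. Cyr61, Ctgf and Ankrd1 stand 1.34-fold, 1.37-fold and 1.31-fold higher at 2 than at 0 µM, while Yap1, Wwtr1 and Tead1 had log2 fold changes of 0.06, 0.08 and 0.14 that did not pass the test.

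Of 34 genes of the Hippo pathway outside the 10, 32 were tested. For 2 against 0 µM edgeR called 0 of them, although 7 were higher and 3 lower with p under 0.05 before adjustment, and DESeq2 called 1 higher. Over all 16038 genes, 1264 were higher and 1001 lower with p under 0.05 before adjustment in edgeR. For 6 against 2 µM edgeR and DESeq2 called 0, and before adjustment 1 gene was higher and 1 lower with p under 0.05. For 6 against 0 µM, 2 of the 32 rose and 1 fell, near the 4.58% and 3.66% of all genes tested. Lats1, the partner kinase of Lats2, averaged 116 ± 8.09 CPM at 0 µM, 131 ± 5.53 at 2 µM and 131 ± 2.16 at 6 µM (SD, n = 4 each). For 2 against 0 µM its log2 fold change was 0.18 (edgeR adjusted p = 0.066), which passed the threshold in 3 of 19 alternative fits. For 6 against 0 µM it was 0.18 (SE 0.0499, edgeR adjusted p = 0.0271). Amotl1, an angiomotin like Amotl2, had a log2 fold change of 0.16 (edgeR adjusted p = 0.0367), and Amot, the founding angiomotin, one of -0.25 (SE 0.0528, edgeR adjusted p = 0.00452). The Lats1 call ended in 5 of 19 alternative fits, with adjusted p of 0.0506 to 0.1005, among them those without replicate 2 at 0 µM and without replicate 1, 2 or 3 at 6 µM. The Amotl1 call ended in 8 of 19 fits (adjusted p 0.0572 to 0.129), among them those without replicate 2 or 3 at 0 µM or any 1 replicate at 6 µM, and the Amot call in 1, without the 3 libraries farthest from their dose means (adjusted p = 0.0581).

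The remaining 13 genes of a YAP signature list differed in direction. All 13 were tested, and their median log2 fold change was 0.04 for 2 against 0 µM, 0.03 for 6 against 0 µM and -0.04 for 6 against 2 µM. Their mean was highest at 2 µM for 5, at 6 µM for 3 and at 0 µM for 5. Gadd45a, a stress-inducible regulator of growth arrest, had 107, 98.5, 100.2 and 82.2 CPM at 0 µM, 139, 135, 128 and 152 CPM at 2 µM, and 112, 122, 116 and 90.4 CPM at 6 µM. It rose at 2 against 0 µM (log2 fold change 0.51, SE 0.0801, edgeR adjusted p = 0.00113) and fell at 6 against 2 µM (log2 fold change -0.33, SE 0.0796, edgeR adjusted p = 0.0456). The call at 6 against 2 µM ended in 10 of 19 alternative fits (adjusted p 0.0539 to 0.178), among them DESeq2 and those without replicate 2 or 3 at 0 µM, any 1 replicate at 2 µM, or replicate 1, 3 or 4 at 6 µM. All 2 µM libraries of Gadd45a were above all others.

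Igfbp3, a secreted binding protein of insulin-like growth factors, had 62.1, 60.4, 67.6 and 65.5 CPM at 0 µM, 47.3, 45.2, 45.6 and 46.6 CPM at 2 µM, and 34.0, 36.5, 36.2 and 32.4 CPM at 6 µM. It stepped down with dose and no doses overlapped. Igfbp3 fell by 0.47 on the log2 scale at 2 against 0 µM, by 0.88 at 6 against 0 µM and by 0.41 at 6 against 2 µM (edgeR adjusted p = 9.93e-05, 1.09e-09 and 0.000466). Tgfb2, a transforming growth factor, averaged 57.4 ± 1.44 CPM at 0 µM, 54.7 ± 2.60 at 2 µM and 46.4 ± 1.75 at 6 µM, and fell at 6 against 0 µM (log2 fold change -0.31, SE 0.0545, edgeR adjusted p = 0.000853). Its fall at 6 against 2 µM (log2 fold change -0.24, edgeR adjusted p = 0.0314) ended in 9 of 19 fits (adjusted p 0.0501 to 0.127), among them those without replicate 2, 3 or 4 at 2 µM or any 1 replicate at 6 µM.

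Of 32 further genes described elsewhere as YAP targets, 31 were tested. For 2 against 0 µM, 11 were higher and 2 lower with p under 0.05 before adjustment in edgeR, most of which did not pass after adjustment. Over all 16038 genes these numbers were 1264 and 1001. For 6 against 0 µM 6 rose and 5 fell, beside 4.58% and 3.66% of all genes. For 6 against 2 µM 2 fell, beside 0.549% of all genes. Their median log2 fold changes were 0.07 for 2 against 0 µM, 0.02 for 6 against 0 µM and -0.00 for 6 against 2 µM. Thbs1, the matricellular protein thrombospondin 1, averaged 2048 ± 123 CPM at 0 µM, 2198 ± 61.9 at 2 µM and 1707 ± 34.2 at 6 µM, and fell at 6 against 0 µM and 6 against 2 µM (log2 fold change -0.26 and -0.36, edgeR adjusted p = 8.42e-05 and 6.75e-06). Prss23, a secreted serine protease, fell in the same comparisons (log2 fold change -0.59 and -0.45, edgeR adjusted p = 1.03e-05 and 0.00111). Areg, named after its value was seen, had the largest rise of the list at 6 against 0 µM (log2 fold change 0.82, SE 0.164, edgeR adjusted p = 0.00242).

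**Figure D5:**
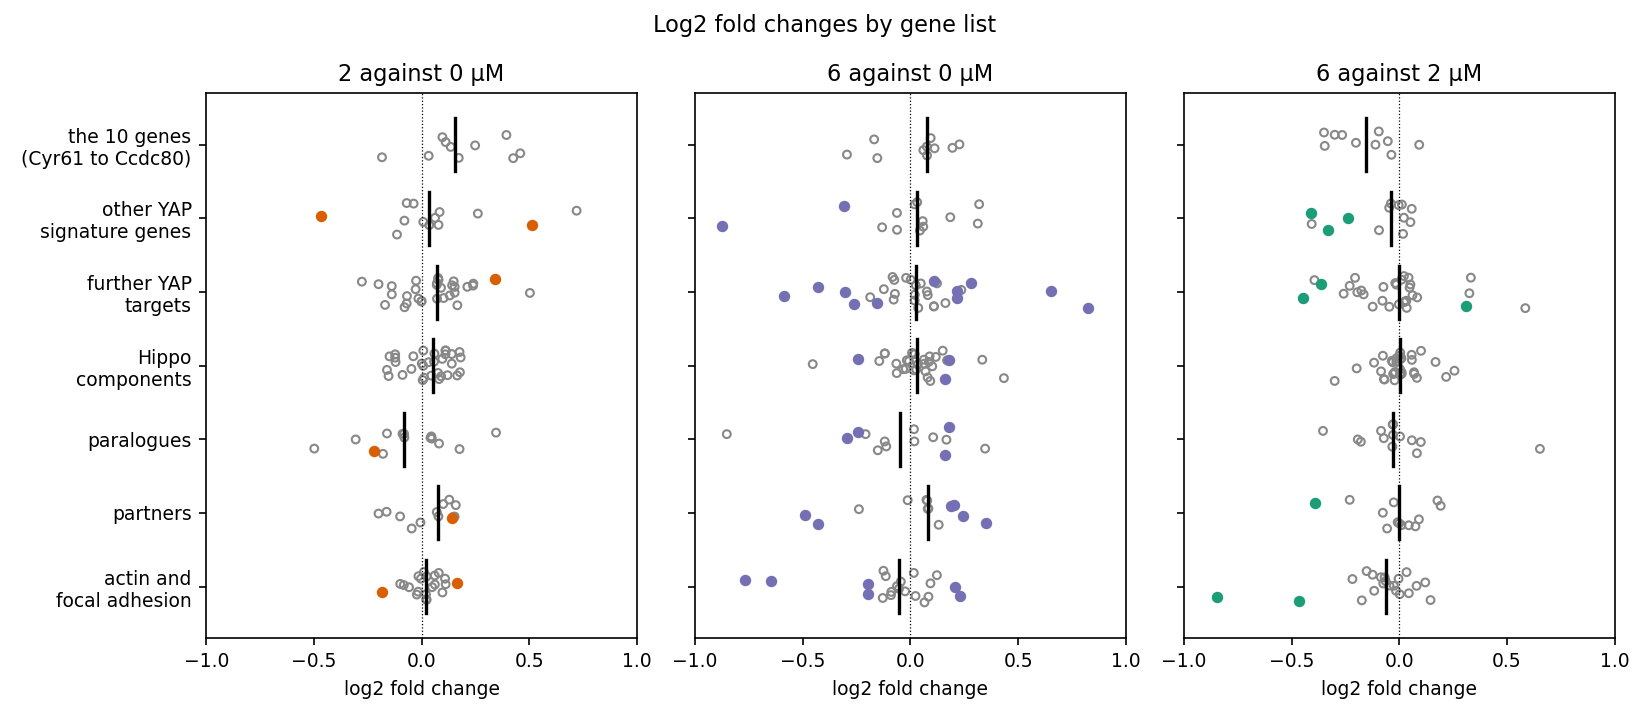
Log2 fold changes by gene list in the 3 comparisons. Each point is a gene (filled where it passed edgeR's test, which is not shown for the top row), the horizontal axis is the log2 fold change, lists run down the page, and vertical bars are list medians. The 10 genes from Cyr61 to Ccdc80 have medians of 0.15, 0.08 and -0.16, and the 13 remaining signature genes 0.04, 0.03 and -0.04.

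Relatives and binding partners of the 10 genes were described in the same way. Of 16 paralogues, 14 were tested. Srpx2, a secreted protein with sequence similarity to Ccdc80, averaged 108 ± 5.05 CPM at 0 µM, 92.9 ± 1.58 at 2 µM and 88.3 ± 5.21 at 6 µM, and fell at 6 against 0 µM (log2 fold change -0.30, SE 0.0501, edgeR adjusted p = 0.000572). Its fall at 2 against 0 µM (-0.22, edgeR adjusted p = 0.0194) ended without replicate 3 or 4 at 0 µM and without replicate 2 or 4 at 2 µM (adjusted p 0.0504 to 0.0739). The other paralogues called at 6 against 0 µM were Lats1, Amotl1 and Amot, given above. Of 16 ligands, receptors and bound factors of the encoded proteins, 13 were tested. For 2 against 0 µM 1 rose, for 6 against 0 µM 4 rose and 2 fell, and for 6 against 2 µM 1 fell. Over all genes tested, 1.61% rose at 2 against 0 µM and 0.549% fell at 6 against 2 µM. At 6 against 0 µM 4.58% rose and 3.66% fell. Gas6, the ligand of AXL, fell at 6 against 0 µM, to 48.2 ± 3.65 CPM at 6 µM against 64.9 ± 5.21 CPM at 0 µM (log2 fold change -0.43, SE 0.0691, edgeR adjusted p = 0.000317), in the comparison in which Axl was higher. Bmp4, of the family bound by CRIM1, averaged 67.4 ± 2.52 CPM at 6 µM and 94.6 ± 3.30 CPM at 0 µM (log2 fold change -0.49, edgeR adjusted p = 2.07e-06), and it also fell at 6 against 2 µM (-0.39, edgeR adjusted p = 0.00019). Itga6, an integrin subunit that binds CCN proteins, rose at 6 against 0 µM (log2 fold change 0.35, SE 0.0667, edgeR adjusted p = 0.00169). The other rises at 6 against 0 µM, named after their values were seen, were those of the CCN receptors Lrp1, Lrp6 and Sdc4 (log2 fold change 0.24, 0.19 and 0.20, edgeR adjusted p = 0.00966, 0.0169 and 0.00604). Vegfa, a growth factor bound by CCN2, rose at 2 against 0 µM (0.14, edgeR adjusted p = 0.036), a call that ended in 10 of 19 fits (adjusted p 0.052 to 0.157), among them those without replicate 1, 3 or 4 at 0 µM, replicate 2, 3 or 4 at 2 µM, or replicate 3 at 6 µM.

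Actin and focal adhesion genes were examined because YAP is known to respond to tension in the cytoskeleton. Of 22, 21 were tested, and their median log2 fold change was 0.02 for 2 against 0 µM, -0.05 for 6 against 0 µM and -0.06 for 6 against 2 µM. For 2 against 0 µM 1 rose and 1 fell, for 6 against 0 µM 2 rose and 4 fell, and for 6 against 2 µM 2 fell. Of all genes tested, 1.61% rose and 0.742% fell at 2 against 0 µM, and 4.58% rose and 3.66% fell at 6 against 0 µM. At 6 against 2 µM 0.549% of them fell. Acta2, smooth muscle actin, had 435, 444, 461 and 448 CPM at 0 µM, 382, 386, 397 and 409 CPM at 2 µM, and 290.3, 285, 293 and 273 CPM at 6 µM. It stepped down with dose without overlap, with log2 fold changes of -0.18, -0.65 and -0.46 for 2 against 0, 6 against 0 and 6 against 2 µM (edgeR adjusted p = 0.0114, 1.59e-10 and 1.87e-07). Myl9, a regulatory light chain of myosin, averaged 8.45 ± 0.223 CPM at 0 µM, 8.92 ± 1.03 at 2 µM and 4.96 ± 0.517 at 6 µM, and fell at 6 against 0 µM and at 6 against 2 µM (log2 fold change -0.77 and -0.85, edgeR adjusted p = 0.000353 and 0.000591). Tagln2, a transgelin, rose at 6 against 0 µM (0.23, edgeR adjusted p = 0.000975). Tln1, the adhesion protein talin, rose at 6 against 0 µM (0.21, edgeR adjusted p = 0.00234), a call that held in all 19 alternative fits. It also rose at 2 against 0 µM (0.16, edgeR adjusted p = 0.0356), a call that ended in 7 of 19 fits (adjusted p 0.0539 to 0.172). Among these were the fits without replicate 1 or 2 at 0 µM and without replicate 1, 3 or 4 at 2 µM.

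The genes whose pattern over the 12 libraries was most like the mean of the 10 were looked up among 10861 tested genes whose log2 CPM averaged 1 or more and that carried a gene symbol other than a provisional one. The 8 nearest had Pearson correlations of 0.878 to 0.928. They were Rps6ka2 (0.928), a ribosomal S6 kinase; Phldb2 (0.917), a protein of the cell cortex; Mgea5 (0.905), the enzyme that removes O-GlcNAc from proteins; Ptx3 (0.903), a secreted pentraxin; Ankrd11 (0.896), a chromatin regulator; Fbxo11 (0.884), a ubiquitin ligase subunit; Tlk2 (0.879), a chromatin-related kinase; and Csf1 (0.878), a macrophage growth factor. Ptx3 averaged 83.6 ± 8.74 CPM at 0 µM, 124 ± 15.3 at 2 µM and 88.9 ± 9.28 at 6 µM, and Csf1 392 ± 13.4, 461 ± 25.4 and 404 ± 17.3 CPM (SD, n = 4 each). Each of the 8 had its highest mean at 2 µM, as the choice by likeness makes probable. Ptx3, with 115, 117, 119 and 147 CPM at 2 µM against 92.0, 77.4, 90.1 and 74.8 CPM at 0 µM, was 1.49-fold higher, a larger ratio than that of Cyr61 or Ctgf.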

How the data were processed

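Messenger RNA of 12 C2C12 libraries was measured by RNA sequencing. The values the authors deposited are raw read counts for each gene, in 1 table, with no normalization. Reads were aligned with HISAT2 to GRCm39, per the submitters' processing notes; not given in the sources used here are the aligner version, counting program, strand setting and annotation. Still, the table's coordinates are those of GRCm38: 98.3% of 54409 shared genes, and 9 of the 10 genes described (not Ankrd1), have the position given in GENCODE M21. Reads of overlapping genes may not be told apart.

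The counts were tested with edgeR 4.0.16 (R 4.3.3): TMM scaling, filterByExpr (38494 genes left out), a mean per dose over all 12 libraries with 9 residual degrees of freedom, the quasi-likelihood test, and Benjamini-Hochberg adjustment over 16038 genes, with calls at an adjusted p under 0.05. From the deposited counts, CPM were then calculated using library sizes scaled by TMM; log2 CPM for correlations used a prior count of 2. The common biological coefficient of variation was 10.8%. The steps were tested on simulated data. DESeq2 1.42.0, other scalings and filters, and fits leaving out libraries were the alternatives.

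The 10 genes and all lists were chosen with earlier results of these data known. Named were the 10 genes, Yap1, Wwtr1 and Tead1 to Tead4, every called signature gene, the 3 called genes of smallest adjusted p per other list and comparison, and the 8 nearest patterns. Sdpr was matched as Cavin2. Markers served as checks. A gene that this rule also names is not reported here. Promoter sequences are from RefSeq (GRCm38.p6).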

Additional observations from a re-analysis of the deposited data

Results flagged for a closer look

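In 126 groups of 4 libraries (42 genes at 3 doses), 6 held a library whose gap to the nearest other library, relative to the group's whole range, passed Dixon's critical value for 4 samples; chance gives about 1 in 20 groups. Of the YAP targets, Ajuba stood at 114.8 CPM in replicate 4 at 2 µM, above 101.1 to 103.1 CPM in the other libraries of that dose. Axl stood at 381.6 CPM in replicate 4 at 6 µM, above 362.8 to 365.3 CPM. Lats1 stood at 103.8 CPM in replicate 2 at 0 µM, below 118.7 to 121.6 CPM. Among the genes of like pattern, Mgea5 was at 74.55 CPM in replicate 1 at 6 µM, below 77.76 to 78.16 CPM, and Ptx3 at 147.4 CPM in replicate 4 at 2 µM, above 115.1 to 118.7 CPM. Ankrd11 was at 232.2 CPM in replicate 2 at 0 µM, below 256.1 to 260.4 CPM.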

How the results depend on the processing

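Of the values of the 10 genes in the alternative fits, 568 shifted by less than the spread between replicates. The 2 that shifted more were of Crim1 (6 against 0 and 6 against 2 µM). Leaving out 1 of 4 libraries can rarely shift a value by more than that spread, so this mark is lenient. For 2 against 0 µM, 2 to 6 of the 10 genes were called higher over the alternative fits, beside 4 in the main fit. The highest mean stayed at 2 µM in 7 to 8 of the 10 genes with each library left out in turn (7 without replicate 2 at 0 µM or replicate 1 at 2 µM). The counts over all genes moved as well, and the cause was not tested. With edgeR, 258 genes were higher and 119 lower for 2 against 0 µM, 735 and 587 for 6 against 0 µM, and 90 and 88 for 6 against 2 µM. Without a filter on low counts they became 438 and 193 for 2 against 0 µM and 177 and 224 for 6 against 2 µM; with DESeq2, 475 and 217 and then 196 and 195. With only the 2 doses compared, 174 were higher and 133 lower for 6 against 2 µM. Without the 3 libraries farthest from their dose means (replicate 1 at 0 µM and replicates 2 and 3 at 6 µM, picked from an earlier account of these data), 408 and 302 were called for 6 against 0 µM and 55 lower for 6 against 2 µM. Leaving out each library in turn gave 72 to 322 higher and 34 to 168 lower for 2 against 0 µM, 513 to 789 and 398 to 592 for 6 against 0 µM, and 45 to 138 and 33 to 121 for 6 against 2 µM. The lowest counts for 2 against 0 µM and for lower genes at 6 against 2 µM came without replicate 4 at 2 µM, and the lowest count of higher genes at 6 against 2 µM without replicate 4 at 6 µM. Called signature genes ranged over 2 to 2, 2 to 3 and 1 to 3 in the 3 comparisons; the 1 came without replicate 2, 3 or 4 at 2 µM or replicate 1, 3 or 4 at 6 µM. With the replicate number as a block, 192 genes were higher and 81 lower for 2 against 0 µM, 648 and 506 for 6 against 0 µM, and 69 and 54 for 6 against 2 µM. Of the 10 genes, 3 rather than 4 were then called higher for 2 against 0 µM, because the call of Crim1 ended. In that comparison the calls of Vegfa and of Fbxo11, a gene of like pattern, ended too. For 6 against 2 µM the call of Tgfb2 ended, as did those of Tlk2 and Csf1, also of like pattern. In the main fit Tlk2 and Csf1 were lower at 6 than at 2 µM (edgeR adjusted p = 0.0456 and 0.0317). Same-numbered libraries did not deviate together (correlations -0.028 to 0.0375, 5 of 12 pairs best with their own number). That check weighs all tested genes alike, also those of low count, so it cannot show that the libraries were unpaired. Depth limits Ctgf and Nuak2 most, with at least 383 and 405 counts.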
